A study of Homo sapiens with 12 samples.

Results

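LACTB KO was compared with WT in the iMGLs of differentiation 1, the libraries that the sample labels assign to the batch diff1. They are 6 of the 12 libraries of the series, 3 from WT clones (named J, K, L) and 3 from LACTB KO clones (named A, B, C), with 1 library per clone (n = 3 per genotype). iMGLs are microglia-like cells derived, through hematopoietic precursor cells (HPCs), from WTC11, an established line of human induced pluripotent stem cells that was CRISPR-edited to give WT and LACTB KO isogenic clones. Every culture of both genotypes received IL34, TGFb and MCSF, with CX3CL1 and CD200 for the last days, and no further treatment. Clones of a genotype are independent lines of 1 parent line, so the spread between them holds clonal as well as culture differences, and fewer cells of a type cannot be told apart from less RNA per cell in such bulk libraries.

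LACTB is a mitochondrial protein of the intermembrane space, related to the bacterial beta-lactamases, that assembles into filaments on the inner membrane side. Microglia are the macrophages of the brain, and their cultured counterparts are recognised by genes such as CSF1R, the receptor of MCSF, and P2RY12, a receptor of purine nucleotides. The study asked which transcripts change when LACTB is lost in such cells.

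The libraries held between 24153233 and 27851429 estimated counts, and 15708 genes passed the expression filter of edgeR. WT J stood apart from the other 5 libraries. Its root mean square distance to them over all tested genes was 0.702 to 0.959 on the log2 CPM scale, against 0.534 to 0.727 between the others, and WT K lay nearer to each LACTB KO library (0.534 to 0.580) than to WT L (0.727) or WT J (0.959). Over 35 genes of microglial identity the median log2 fold change (LACTB KO against WT) was -0.01, with single genes between -0.88 and 0.73. CSF1R had 1563, 1924 and 2056 CPM (counts scaled to the TMM-adjusted library total) in WT J, K and L and 1753, 1855 and 1958 CPM in LACTB KO A, B and C, whereas TMEM119, a marker of microglia in tissue, had under 2 CPM in each library. Levels are given below in this order of clones, WT J, K and L first and then LACTB KO A, B and C.

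LACTB transcripts were lower in all 3 LACTB KO clones, but not to the same extent. The gene (ENSG00000103642.12) is at chr15:63121833-63142061 of GRCh38, plus strand. It had 72.3, 80.4 and 77.0 CPM in the WT clones and 9.93, 45.1 and 7.999 CPM in the LACTB KO clones, or 76.6 ± 4.04 against 21.0 ± 20.9 CPM (SD, n = 3). Clones A and C kept 13% and 10.4% of the WT mean, whereas clone B kept 58.9%. No LACTB KO library overlapped a WT library. The log2 fold change was -1.86 (SE 0.60, 95% interval -3.27 to -0.46), with an unadjusted p of 0.0161 and an adjusted p of 0.983 in edgeR's quasi-likelihood test, and an exact two-sided permutation test gave p = 0.1, the smallest that 3 against 3 allows. Without clone B it was -3.09 with an adjusted p of 0.00831, and LACTB was then the 1 gene called. The same clones kept this order in differentiation 2, with 80.4, 97.2 and 74.0 CPM in WT and 9.38, 51.0 and 7.37 CPM in LACTB KO.

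**Figure D1:**
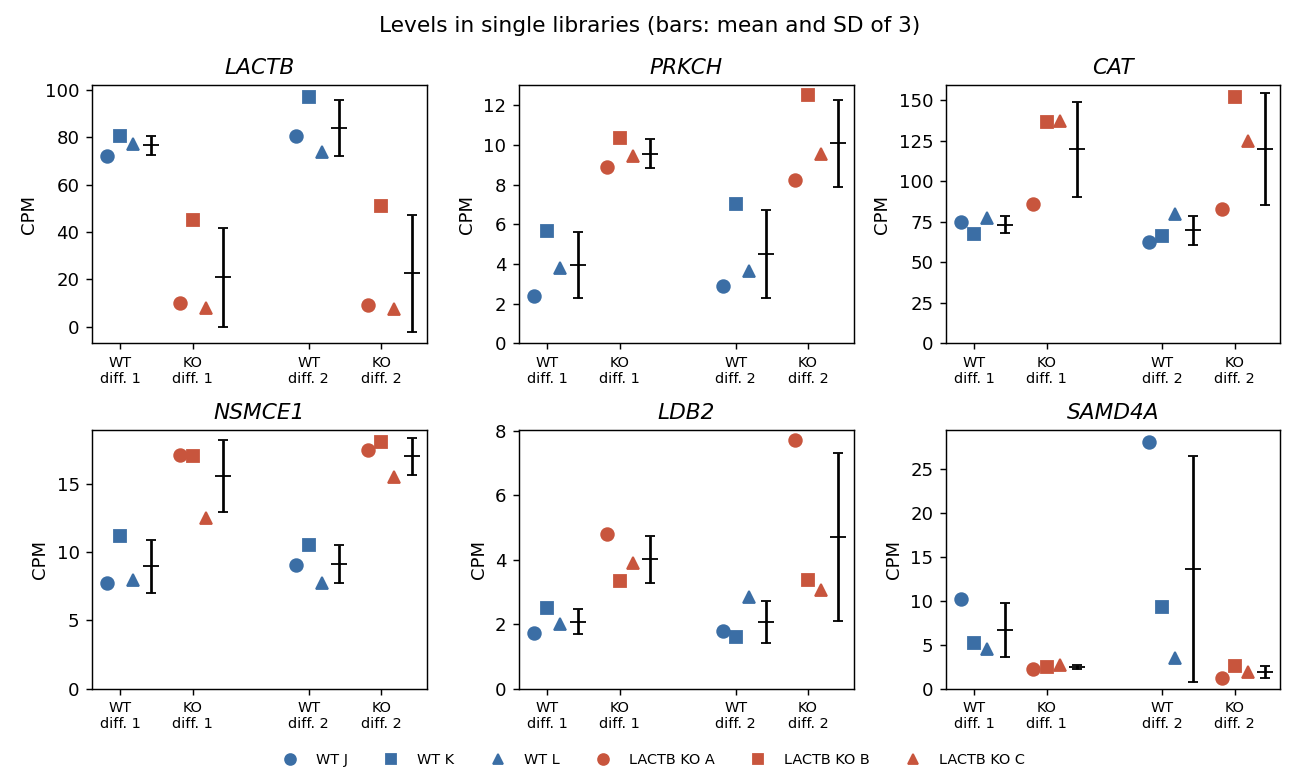
CPM of LACTB and of 5 genes whose LACTB KO and WT libraries did not overlap in either differentiation, for each clone (symbols) in differentiations 1 and 2, with the mean and SD of 3 libraries as bars. PRKCH, CAT, NSMCE1 and LDB2 were above, and LACTB and SAMD4A below, every WT library of the same differentiation. LACTB KO clone B kept 45.1 CPM of LACTB in differentiation 1.

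The genes next to LACTB on chromosome 15 were examined because an edit can reach beyond its target. Of 9 listed genes, LACTB included, 8 were tested. RAB8B, a vesicle traffic GTPase, USP3, a histone deubiquitinase, TLN2, which links integrins to actin, and RPS27L had log2 fold changes between -0.14 and 0.03, with overlapping groups. APH1B, a subunit of gamma-secretase, had 29.0, 30.9 and 30.8 CPM in WT and 20.7, 24.5 and 32.0 CPM in LACTB KO (log2 fold change -0.23, SE 0.17, unadjusted p = 0.207, edgeR). HERC1, a ubiquitin ligase, had a log2 fold change of -0.23 (unadjusted p = 0.243). TPM1, an actin-binding tropomyosin, had 118.4, 8.96 and 56.2 CPM in WT and 16.0, 14.3 and 10.3 CPM in LACTB KO, with WT J and WT L highest. Its log2 fold change was -2.18 (SE 0.75, unadjusted p = 0.0216, edgeR), and it is also on the stromal list below.

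Genome-wide, edgeR called 0 genes (0%) at an adjusted p under 0.05, and 0.983 was the smallest adjusted p. An unadjusted p under 0.05 was found for 505 genes, of which 50 (0.318% of those tested) were higher and 455 (2.90%) lower in LACTB KO. DESeq2 called 3 genes, all lower in LACTB KO (ENSG00000187951, MAMDC2 and WLS), with 567 at an unadjusted p under 0.05, and limma voom called 0, with 215. The count rested on the expression filter. With every gene of at least 1 count in the fit (33670 genes), 363 were called, 352 of them lower in LACTB KO and 52 of them on the collagen or stromal lists below, and the degrees of freedom that edgeR borrowed across genes went from 3.56 to 26.8. The lower genes followed 1 WT library. In 394 of the 455 (86.6%) WT J was the highest of the 6 libraries, in 345 WT K was the lowest of the WT libraries, and in 275 the groups overlapped. Without WT J, 121 genes were lower and 53 higher at an unadjusted p under 0.05, and without WT K 1030 were lower and 336 higher.

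All 3 LACTB KO libraries lay above all 3 WT libraries for 347 genes (2.21%) and below them for 461 (2.93%). With 3 against 3 libraries an exact two-sided permutation test gives p = 0.1 for any such gene. Groups without overlap are thus common even among genes that do not differ, and both shares together were no larger than equal groups would give. Of the 347 genes, 26 (7.49%) were also above WT in differentiation 2, against 4.35% of all tested genes, and of the 461 genes 40 (8.68%) were also below it, against 4.58%. The libraries of differentiation 2 come from the same 6 clones, so that a difference carried by a clone recurs there whatever its origin.

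The 10 genes with the smallest p among those higher in LACTB KO, at a mean of 1 CPM or more, had non-overlapping groups in differentiation 1, and 4 of them also in differentiation 2. PRKCH, which encodes protein kinase C eta, had 2.38, 5.66 and 3.82 CPM in WT and 8.92, 10.4 and 9.45 CPM in LACTB KO (log2 fold change 1.28, SE 0.31, unadjusted p = 0.00406, edgeR). Its lowest LACTB KO library was thus above its highest WT library, WT K, and in differentiation 2 it had 2.89, 7.05 and 3.65 CPM in WT and 8.22, 12.5 and 9.54 CPM in LACTB KO. CAT, the catalase that breaks down hydrogen peroxide in peroxisomes, had 74.7, 67.2 and 77.4 CPM in WT and 85.8, 136.3 and 136.9 CPM in LACTB KO. Clones B and C stood well above the WT clones and clone A close to them, and the same was seen in differentiation 2, with 62.8, 66.4 and 79.7 against 82.9, 151.8 and 124.9 CPM. The log2 fold change of CAT was 0.71 in differentiation 1 (SE 0.18, unadjusted p = 0.00523) and 0.78 in differentiation 2 (unadjusted p = 0.0123).

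NSMCE1, a subunit of the SMC5/6 complex of DNA repair, had 7.78, 11.2 and 7.95 CPM in WT and 17.1, 17.1 and 12.5 CPM in LACTB KO (log2 fold change 0.79, SE 0.22, unadjusted p = 0.00680, edgeR). In differentiation 2 its log2 fold change was 0.90 (unadjusted p = 0.000800), again with no overlap. LDB2, a cofactor of LIM-domain transcription factors, was low in all libraries, at 1.73, 2.497 and 2.01 CPM in WT and 4.80, 3.35 and 3.91 CPM in LACTB KO. Its log2 fold change was 0.95 in differentiation 1 (SE 0.27, unadjusted p = 0.00863) and 1.19 in differentiation 2 (unadjusted p = 0.0349). Each of these 4 genes had an adjusted p of 0.983 in differentiation 1 in edgeR. The highest LACTB KO clone there was B for PRKCH and A for LDB2, while B and C were nearly level for CAT, and A and B for NSMCE1.

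The other genes of this set did not keep separate groups in differentiation 2. SERPINB9, an inhibitor of granzyme B, had 111.0, 130.5 and 137.8 CPM in WT and 181.9, 175.9 and 150.3 CPM in LACTB KO (log2 fold change 0.42, SE 0.12, unadjusted p = 0.00931, edgeR), and 0.29 in differentiation 2 (unadjusted p = 0.253). CALHM2, a large-pore channel of the CALHM family, had 31.3, 47.6 and 39.9 CPM in WT and 66.9, 84.0 and 48.8 CPM in LACTB KO, where clone C lay just above WT K. RETN, which encodes resistin, a secreted protein of human myeloid cells, had 35.4, 45.5 and 28.7 CPM in WT and 62.2, 49.7 and 48.7 CPM in LACTB KO (log2 fold change 0.55, SE 0.18, unadjusted p = 0.0185), and its log2 fold change in differentiation 2 was 0.11 (unadjusted p = 0.717). ENSG00000272921, a protein-coding model on chromosome 12, had 4.87, 5.47 and 4.42 CPM in WT and 9.13, 9.83 and 5.79 CPM in LACTB KO. ATF6-DT, a divergent transcript of the ATF6 locus, had 0.959, 0.735 and 0.601 CPM in WT and 1.77, 1.40 and 1.30 CPM in LACTB KO. In differentiation 2 this order turned, with 1.41, 1.29 and 0.930 CPM in WT and 0.546, 0.802 and 0.660 CPM in LACTB KO.

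The gene with the smallest p and the first gene of the higher set overlap each other. ENSG00000187951, an lncRNA at chr15:30658717-30772993 on the plus strand of GRCh38, had estimated counts of 29, 98 and 126 in WT and 0, 0 and 0 in LACTB KO (unadjusted p = 0.000254, adjusted p = 0.983, edgeR), so that it was at least 24.2-fold lower in LACTB KO against a floor of 3 counts per library. ENSG00000284906, a protein-coding readthrough gene at chr15:30624548-30773002 on the same strand, had counts of 76, 45 and 84 in WT and 106, 216 and 191 in LACTB KO (log2 fold change 1.36, SE 0.33, unadjusted p = 0.00384). Of the 5637 exon bases of the lncRNA, 5588 (99.1%) also belong to exons of the readthrough gene, so reads there can be assigned to either. Summed over both genes the counts were 105, 143 and 210 in WT and 106, 216 and 191 in LACTB KO, or 5.56 ± 1.72 against 6.44 ± 1.80 CPM (SD, n = 3), and the groups overlapped with a log2 difference of 0.22. In differentiation 2 the lncRNA was at 0 in WT J and LACTB KO B but at 2.00 and 2.68 CPM in LACTB KO A and C, so its absence did not stay with the genotype. How the counts were divided between such genes is not given in the sources used here.

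**Figure D2:**
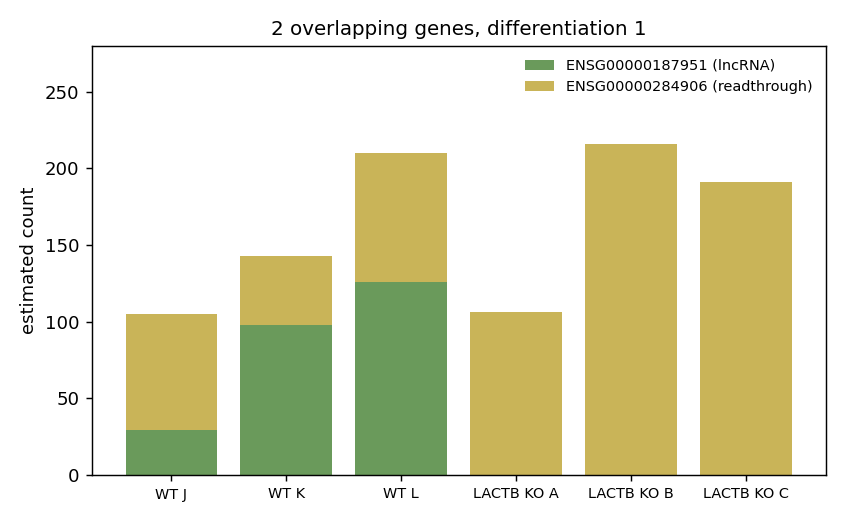
Estimated counts in differentiation 1 of the lncRNA ENSG00000187951 and of the readthrough gene ENSG00000284906, which share 5588 exon bases, stacked for each clone. The lncRNA was counted in the WT clones and at 0 in the LACTB KO clones, while the summed counts of both genes ranged from 105 to 210 in WT and from 106 to 216 in LACTB KO.

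The 9 other genes with the smallest p among those lower in LACTB KO also had non-overlapping groups. SAMD4A, an RNA-binding repressor of translation, had 10.2, 5.25 and 4.52 CPM in WT and 2.27, 2.43 and 2.72 CPM in LACTB KO (log2 fold change -1.43, SE 0.35, unadjusted p = 0.00370, edgeR), and was the 1 gene of the lower set whose groups stayed apart in differentiation 2, with 28.1, 9.36 and 3.46 against 1.16, 2.55 and 1.83 CPM. OPTN, an autophagy receptor, had 16.2, 7.71 and 7.52 CPM in WT and 4.50, 3.24 and 4.16 CPM in LACTB KO (log2 fold change -1.40, SE 0.34, unadjusted p = 0.00394). ETS1, a transcription factor, had 9.59, 12.2 and 6.39 CPM in WT and 3.83, 5.01 and 4.71 CPM in LACTB KO (log2 fold change -1.05, SE 0.27, unadjusted p = 0.00532). ETS1 was highest in WT K, unlike the stromal genes below, which were lowest there among the WT libraries.

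In the remaining genes, as in SAMD4A and OPTN, WT J was the highest library. WLS, the carrier of Wnt ligands to the cell surface, had 19.9, 3.53 and 4.49 CPM in WT and 1.39, 1.18 and 1.48 CPM in LACTB KO (log2 fold change -2.78, SE 0.67). EGFR, the receptor of epidermal growth factor, had 4.64, 1.69 and 4.06 CPM in WT and 1.22, 0.479 and 0.905 CPM in LACTB KO. AFAP1, an actin filament adaptor, had 6.60, 1.40 and 3.78 CPM in WT and 0.841, 0.663 and 0.543 CPM in LACTB KO. These are levels at which WT K exceeded the highest LACTB KO library by less than 3 CPM. MAMDC2, AHNAK and LAMB2, the laminin beta 2 chain, had log2 fold changes of -3.67, -2.32 and -2.50, and in WT J they were at 11.1, 60.7 and 47.1 CPM. All 10 genes of the lower set also had lower mean levels in LACTB KO in differentiation 2 by the fitted fold change.

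Most listed genes of collagen, matrix and stromal cells had their highest levels in WT J and WT L. Collagens form the fibrils of the extracellular matrix and are made chiefly by fibroblasts and other stromal cells. Of 62 listed collagen and matrix genes 50 were tested, of which 48 were lower and 2 higher in LACTB KO. Their log2 fold changes had a median of -2.63, against -0.000647 over all tested genes, and 32 had an unadjusted p under 0.05, all lower (2.90% of all tested genes were lower at that p). COL1A1 had 3717, 7.57 and 209.1 CPM in WT and 50.1, 49.4 and 10.8 CPM in LACTB KO. COL3A1 had 2476, 5.66 and 77.3 CPM in WT and 22.1, 31.7 and 5.18 CPM in LACTB KO. WT K was thus below LACTB KO A and B for both collagens, and WT J was over 10 times as high as WT L. FBN2, which encodes the microfibril protein fibrillin 2, had 139.8, 1.21 and 24.8 CPM in WT and 3.45, 2.21 and 1.52 CPM in LACTB KO (log2 fold change -4.54, SE 1.38, unadjusted p = 0.0119, edgeR). LAMB1, the laminin beta 1 chain, and COL16A1 had log2 fold changes of -2.74 (SE 0.83) and -5.46 (SE 1.69). WT K lay inside the LACTB KO range for both of them, and below that range for FBN2. Of the 50 genes 3 (6%) lay below WT in all LACTB KO libraries, COL6A2, LAMC1 and NID1, against 2.93% of all tested genes.

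The stromal list, of fibroblast, mesenchymal and smooth muscle genes, behaved alike. Of 29 listed genes 17 were tested and 12 had too few counts. Of the 17, 16 were lower in LACTB KO, 11 of them with an unadjusted p under 0.05, and the median log2 fold change was -2.84. Of all tested genes 2.90% were lower at that p. MYL9, a myosin light chain of smooth muscle, had 49.4, 1.03 and 15.6 CPM in WT and 2.27, 1.62 and 1.01 CPM in LACTB KO. CALD1, caldesmon, had 178.4, 3.75 and 55.1 CPM in WT and 7.99, 8.40 and 5.28 CPM in LACTB KO. WT K was the second lowest library for MYL9 and the lowest for CALD1. CDH11, the cadherin of mesenchymal cells, ran from 0.220 CPM in WT K to 23.9 CPM in WT J and from 0.217 to 0.841 CPM in LACTB KO. No stromal gene had groups that did not overlap. With 17 genes this is near the share of 2.93% of all tested genes that lay below WT in all LACTB KO libraries. Summed over the list, the levels were 838.0, 58.0 and 324.2 CPM in WT and 105.0, 87.0 and 75.4 CPM in LACTB KO. When WT J was left out, the stromal list had a median of -1.51 with 1 gene at an unadjusted p under 0.05, and the collagen and matrix list had -1.19 with 3. COL1A1, COL3A1 and the non-overlapping collagen genes were named after their values were seen.

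**Figure D3:**
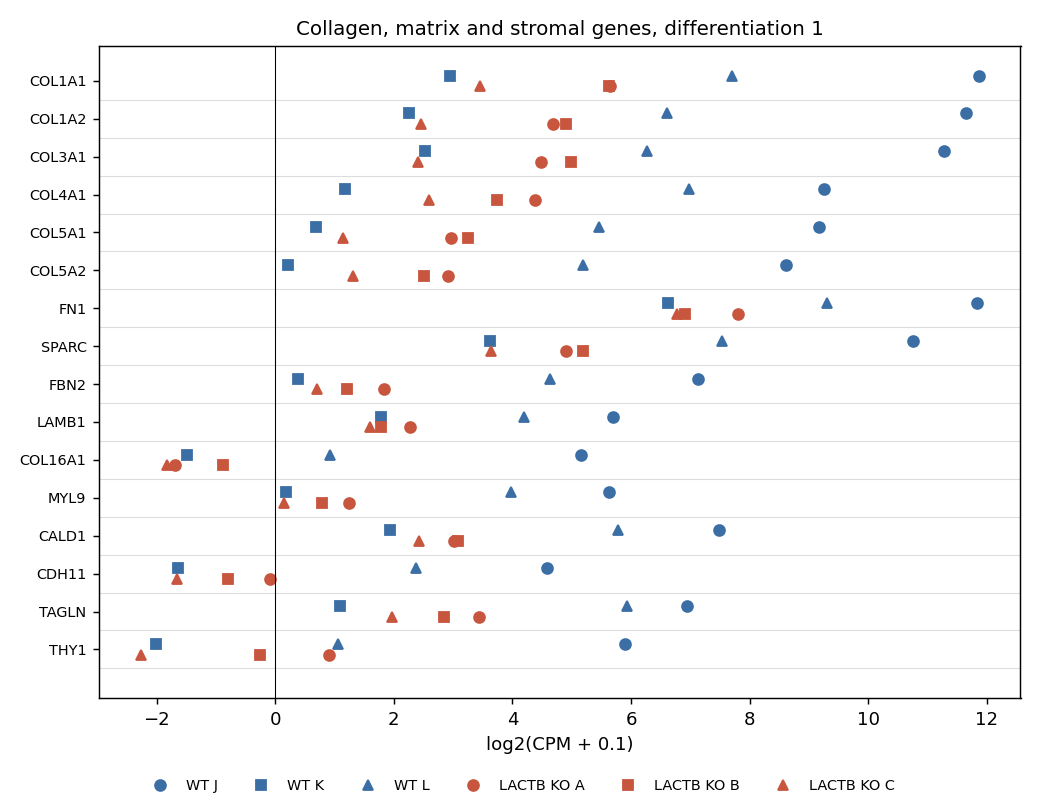
Level of 16 collagen, matrix and stromal genes in each of the 6 libraries of differentiation 1, as log2(CPM + 0.1); circles, squares and triangles mark clones, WT above the row's centre and LACTB KO below it, and 10 of the genes, from COL1A1 to SPARC with TAGLN and THY1, were chosen after their values were seen. WT J is the highest library in every row and WT L the next, while WT K lies among or below the LACTB KO libraries.

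Signalling genes were mostly lower in LACTB KO, and adhesion genes were divided. Of 59 tested signalling genes 51 were lower in LACTB KO, against 7874 of all 15708 tested genes. Of the 59, 13 had an unadjusted p under 0.05 in edgeR, all lower, against 2.90% of all tested genes. The median log2 fold change of the 59 was -0.53, and -0.16 without WT J. SLIT2, a guidance ligand, had 3.57, 0.624 and 1.13 CPM in WT and 0.421, 0.184 and 0.253 CPM in LACTB KO, with no overlap. LTBP2, a matrix protein named after the LTBP family, and EFNB2, an ephrin ligand, had log2 fold changes of -1.86 and -3.33. Among 50 tested adhesion genes 33 were lower and 17 higher, with 9 lower at an unadjusted p under 0.05, again against 2.90% of all tested genes. ITGAV, an integrin subunit that microglia express, had 243.6, 195.7 and 176.6 CPM in WT and 127.4, 161.0 and 151.0 CPM in LACTB KO (log2 fold change -0.49, SE 0.15, unadjusted p = 0.0124, edgeR). Its groups did not overlap. JAM3, a junctional adhesion molecule, and FAT1, a large cadherin, had log2 fold changes of -2.72 and -1.67.

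Markers of other cell types ranged from undetected to over 100 CPM. Of 18 granulocyte genes 2 were tested, RNASE2 (1.95 to 4.56 CPM in WT and 2.36 to 3.48 CPM in LACTB KO) and CEBPE, and 6 had no count in any library. Of 10 mast cell genes 3 were tested, HPGDS, KIT and SIGLEC6, while 6 had at most 3 counts in every library, 2 of these with no count at all. The summed list, most of it HPGDS (65.6 to 108.4 CPM), had 88.1 to 126.5 CPM in WT and 83.3 to 113.1 CPM in LACTB KO. KIT, the receptor of stem cell factor, was low in WT J (3.53 CPM against 12.3 to 28.2 CPM in the other 5 libraries). Of 15 erythroid and megakaryocyte genes 3 were tested, HBB, ITGA2B and GP1BA, with summed levels of 13.6 to 15.5 CPM in WT and 10.6 to 16.4 CPM in LACTB KO. The endothelial list, 4 of 12 genes tested, summed to 69.9 CPM in WT J, of which FLT1 gave 57.3 CPM, and to between 2.72 and 4.87 CPM in the other 5 libraries. VWF and PLVAP were under 2 CPM in each library. POU5F1, a defining factor of pluripotent cells, was under 1 CPM throughout, and of 12 pluripotency genes LIN28B, DNMT3B and L1TD1 were tested beside UTF1. LIN28B, which blocks the processing of let-7, had 37.6, 50.5 and 41.5 CPM in WT and 47.9, 54.3 and 51.0 CPM in LACTB KO. Among 12 tested neural and epithelial genes 10 were lower, and AFP and APOA1, secreted by fetal liver and endoderm, were the others, at 16.7 to 38.95 and 17.0 to 28.9 CPM. KRT8 and KRT18, keratins of simple epithelia, had 131.0 and 84.3 CPM in WT J and between 20.8 and 25.8 CPM in the other 5 libraries. AFP and APOA1 were named after their values were seen. NES, nestin, had 0.997, 1.40 and 4.77 CPM in WT and 0.715, 0.773 and 0.977 CPM in LACTB KO, and TUBB3, a neuronal tubulin, had a log2 fold change of -0.67. Whether such cells were present, and their part in the other results, was not tested.

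Nuclear genes of the respiratory chain were slightly higher in LACTB KO in nearly every case, but not one of them passed. The chain carries electrons from NADH and succinate to oxygen through complexes I to IV, and ATP synthase uses the resulting proton gradient. Of 79 genes 77 had a higher mean in LACTB KO. The median log2 fold change was 0.14, with a range of -0.06 to 0.29, while 0 had an unadjusted p under 0.05 and 0 had non-overlapping groups. Of all tested genes 0.318% were higher at that p and 2.21% lay above WT in all LACTB KO libraries. By complex, 36 of 37 genes of complex I, 4 of 4 of complex II, 9 of 9 of complex III, 11 of 11 of complex IV and 17 of 18 of ATP synthase were higher. NDUFB2, an accessory subunit of complex I, had 51.3, 67.6 and 50.2 CPM in WT and 69.7, 77.4 and 56.3 CPM in LACTB KO (log2 fold change 0.27, SE 0.16, unadjusted p = 0.145, edgeR). NDUFA2 and NDUFS7, of the same complex, had log2 fold changes of 0.19 and 0.17. The mean over the list was 5.87, 6.13 and 5.72 log2 CPM in WT and 6.12, 6.21 and 5.81 log2 CPM in LACTB KO. WT K was level with LACTB KO A, and LACTB KO C was below WT J, so the groups overlapped and the difference of their means, 0.14, was smaller than the spread between libraries of a genotype (SD 0.21). Without WT K the median was 0.28 and 8 genes had an unadjusted p under 0.05, and without LACTB KO C it was 0.27 with 6. Without WT L it was 0.046 with 63 of 79 higher, and without LACTB KO B it was 0.062 with 67 higher. The genes of the list moved together across libraries and are not independent of each other.

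The other lists of nuclear genes of mitochondria and metabolism also had their highest means in WT K, LACTB KO A and LACTB KO B. Of the 78 genes of the mitochondrial ribosome 72 were higher in LACTB KO (median log2 fold change 0.13, from 0.069 without WT L to 0.24 without WT K), and 2 (2.56%) lay above WT in all LACTB KO libraries, against 2.21% of all tested genes. MRPL24 had 21.0, 29.8 and 23.0 CPM in WT and 34.2, 38.0 and 25.0 CPM in LACTB KO (log2 fold change 0.40, SE 0.20, unadjusted p = 0.0817, edgeR), and MRPL12 and MRPL3 had log2 fold changes of 0.31 and 0.26. Of the 79 genes of the cytosolic ribosome 71 were higher, at a median of 0.05 that became -0.04 without WT L, with RPS21 at 0.30 and RPS29 at 0.21. The 13 mitochondrially encoded genes did not follow the nuclear ones: 4 were higher and 9 lower in LACTB KO (median -0.05), whereas 12 were higher without WT J. Their mean was lowest in WT K (10.44 log2 CPM) and highest in WT J (10.91 log2 CPM). MT-ATP8 had 68.0, 48.5 and 75.2 CPM in WT and 77.2, 104.9 and 56.8 CPM in LACTB KO, MT-ATP6 had a log2 fold change of 0.16 and MT-CYB one of -0.15.

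Glycolysis splits glucose into pyruvate, and the TCA cycle, which makes succinyl-CoA, oxidises it further. Of 20 glycolytic genes 16 were higher, at a median of 0.18. PFKP, the platelet type of phosphofructokinase, had 53.1, 80.5 and 77.5 CPM in WT and 92.2, 96.6 and 86.7 CPM in LACTB KO, with no overlap (log2 fold change 0.38, SE 0.16, unadjusted p = 0.0462, edgeR). It was the 1 glycolytic gene with an unadjusted p under 0.05, while GPI had a log2 fold change of 0.24 and ENO2, the neuronal enolase, one of -0.62. Of 34 tested genes of carnitine transfer, succinyl-CoA, succinate and the TCA cycle 31 were higher (median 0.11). Of these 0 had an unadjusted p under 0.05, where 0.318% of all tested genes were higher at that p. ACADS, the short-chain acyl-CoA dehydrogenase, had 12.4, 17.2 and 15.6 CPM in WT and 20.1, 18.04 and 17.5 CPM in LACTB KO (log2 fold change 0.30, SE 0.16, unadjusted p = 0.106), without overlap but with WT K and LACTB KO C close. IDH3A, of the TCA cycle, and SUCLG2, a subunit of succinyl-CoA ligase, had log2 fold changes of 0.30 and 0.23.

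In differentiation 2 the respiratory chain leaned the other way. There 9 of the 79 nuclear genes were higher in LACTB KO (median -0.08), and the medians were -0.01 for the mitochondrial ribosome, -0.04 for glycolysis and -0.06 for the genes of carnitine and succinyl-CoA. MHC class I genes also turned, with 7 of 21 higher (median -0.06). Other lists kept their direction there, in the same clones. Of 65 genes of DNA replication 58 were higher (median 0.14), as were 55 of 61 of mitosis (median 0.14). The medians were -2.03 for collagen and matrix, -1.93 for stromal and -0.33 for lysosomal genes. In the test of the interaction of genotype and differentiation, 0 of the 79 respiratory genes had an unadjusted p under 0.05, so that a difference between the differentiations was not shown for any of them. Over all 16681 genes in that fit 0 had an adjusted p under 0.05 in edgeR and 153 (0.917%) an unadjusted one.

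Genes of DNA replication and S phase, which copy the genome in dividing cells, were all higher on average in LACTB KO, by an amount that depended on which libraries were included. Of 65 genes 65 were higher (median log2 fold change 0.34), and 0 had an unadjusted p under 0.05 or non-overlapping groups. Over all tested genes 0.318% were higher at that p and 2.21% lay above WT in all LACTB KO libraries. RFC2, of the clamp loader, had 36.5, 56.1 and 46.8 CPM in WT and 63.4, 67.0 and 49.9 CPM in LACTB KO (log2 fold change 0.37, SE 0.18, unadjusted p = 0.0755, edgeR). MCM2, of the replicative helicase, had 32.0, 97.1 and 68.2 CPM in WT and 94.97, 120.7 and 69.9 CPM in LACTB KO. WT J was lowest for both, and WT K was as high as LACTB KO A or nearly so. RNASEH2A and SLBP, the histone mRNA-binding protein, had log2 fold changes of 0.37 and 0.34. The list mean was 4.02, 5.26 and 4.84 log2 CPM in WT and 5.03, 5.46 and 4.88 log2 CPM in LACTB KO. Without WT J the median fell from 0.34 to 0.09 and 12 of the 65 genes were lower, and without WT K it was 0.65, with 28 genes at an unadjusted p under 0.05. Without LACTB KO B it was 0.19. Of 61 genes of mitosis 47 were higher (median 0.06), NEK2, a centrosomal kinase, at -0.44, KIF18A, a kinesin, at 0.35 and TUBB4B at 0.21. Without WT J 48 of the 61 were lower.

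**Figure D4:**
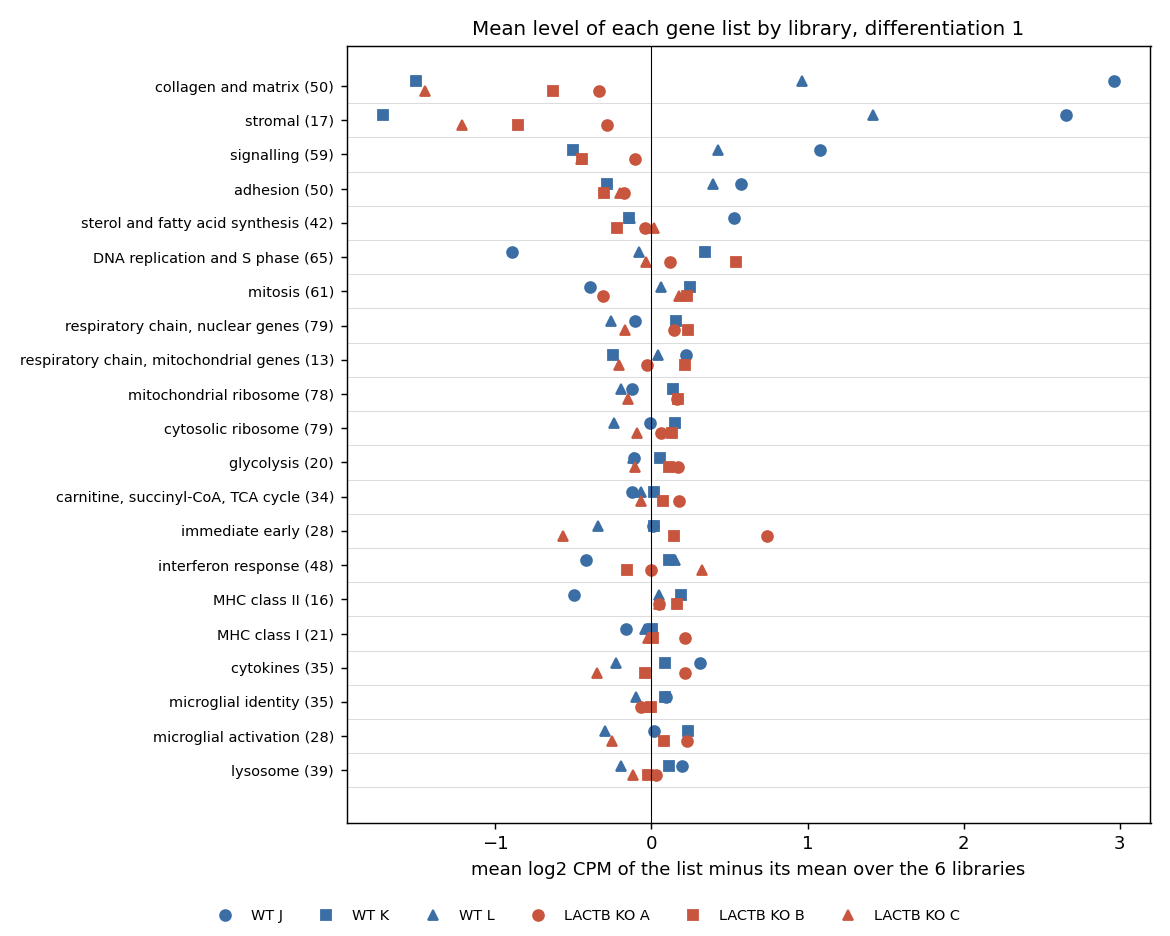
Mean log2 CPM of 21 gene lists in each library of differentiation 1, minus the mean over the 6 libraries; the number of tested genes is in brackets, WT is drawn above and LACTB KO below each row's centre. WT J lies far from the other libraries for collagen, stromal, sterol synthesis and replication genes, and for no list are the 3 LACTB KO libraries all above or all below the 3 WT libraries.

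Genes of sterol synthesis, under control of the SREBP factors, were higher in WT J alone. Of 42 genes of sterol and fatty acid synthesis 35 were lower in LACTB KO (median -0.25), and without WT J 35 were higher, with a median of 0.07. SQLE, squalene epoxidase, had 181.9 CPM in WT J, 76.5 and 75.9 CPM in WT K and L, and 75.8, 66.1 and 90.5 CPM in LACTB KO. LSS, which closes the sterol ring, and MSMO1, a later enzyme, had 169.4 and 135.5 CPM in WT J against 68.9 to 77.0 and 40.5 to 62.6 CPM in the other 5 libraries. Of 39 lysosomal genes 30 were lower (median -0.05) and 22 were higher without WT J. Lower in the full comparison were ATP6V0A1, of the proton pump, at -0.37, GALC at -0.18 and CTSK at -0.67.

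Few immune genes had non-overlapping groups, as few of all tested genes did (2.21% above and 2.93% below WT). None of them had an adjusted p under 0.05 in edgeR, and unadjusted ones were found for 3, all lower (CD14, GAS6 and CXCL12). Of all tested genes 2.90% were lower at that p, so such small counts do not set the immune genes apart. Of 35 genes of microglial identity 15 were higher and 20 lower in LACTB KO (median -0.01) and 0 with non-overlapping groups. CD14, the coreceptor of lipopolysaccharide, had 62.3, 63.6 and 39.2 CPM in WT and 31.3, 43.9 and 37.4 CPM in LACTB KO (log2 fold change -0.55, SE 0.21, unadjusted p = 0.0313, edgeR). GAS6, a ligand of the TAM receptors, had 70.5, 26.3 and 32.5 CPM in WT and 28.5, 23.9 and 17.7 CPM in LACTB KO (unadjusted p = 0.0451), with WT J highest. ADGRG1, an adhesion receptor of microglia, had 58.8, 139.3 and 121.3 CPM in WT and 130.2, 238.4 and 159.3 CPM in LACTB KO (log2 fold change 0.73, SE 0.34, unadjusted p = 0.0661). Of 28 tested genes of the disease-associated state 13 were higher and 15 lower. CST7, cystatin F, stood at 11.6 CPM in LACTB KO A and between 2.72 and 3.76 CPM in the other 5 libraries, and ABCA7 and FABP5 had log2 fold changes of -0.24 and 0.30.

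Of 48 tested interferon-stimulated genes 35 were higher, at a median of 0.10, and without WT J 32 were lower. IFITM3 had 50.5, 64.1 and 69.9 CPM in WT and 78.6, 65.6 and 79.6 CPM in LACTB KO, and IRF1 and IFI35 had log2 fold changes of 0.34 and 0.19. Of 16 tested MHC class II genes, which present peptides to helper T cells, 14 were higher (median 0.16), and without WT J 11 were lower. RFXANK, of the class II transcription complex, had 28.9, 33.8 and 30.1 CPM in WT and 39.8, 38.3 and 32.5 CPM in LACTB KO, while IFI30 and CTSS had log2 fold changes of 0.31 and -0.16. Among 21 class I genes 17 were higher (median 0.08). TAP2, the peptide transporter, had 75.5, 95.2 and 100.1 CPM in WT and 113.4, 103.6 and 112.2 CPM in LACTB KO, without overlap (log2 fold change 0.28, SE 0.12, unadjusted p = 0.0540, edgeR). PSME2 and PSMB8, of the immunoproteasome, had log2 fold changes of 0.37 and 0.35, and their lowest LACTB KO library, C, was below WT K.

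Of 35 tested cytokine genes 25 were lower (median -0.15), and 18 were higher without WT J. CXCL12, a chemokine of stromal cells, had 1.69, 1.43 and 1.94 CPM in WT and 1.05, 0.405 and 1.05 CPM in LACTB KO (unadjusted p = 0.0451, edgeR), and it was the 1 cytokine gene with an unadjusted p under 0.05. LIF, which stromal cells also secrete, had a log2 fold change of -2.23 and followed WT J and L (3.64 and 2.30 CPM). CSF1, the ligand of CSF1R, had 12.7, 19.5 and 23.4 CPM in WT and 47.7, 26.4 and 20.4 CPM in LACTB KO, clone A being the highest. Of 29 tested targets of NF-kB 19 were lower (median -0.11), with TNIP1, an inhibitor of that pathway, at 244.6, 243.8 and 219.1 CPM in WT and 205.7, 204.9 and 214.7 CPM in LACTB KO, IER3 at a log2 fold change of -0.46 and BCL2A1 at 0.88.

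Immediate early genes are induced within minutes of stimulation or handling, and they were listed together with heat shock genes. The mean over this list was highest in LACTB KO A (6.06 log2 CPM) and lowest in LACTB KO C (4.75 log2 CPM), but not every gene followed. Of 28 genes 25 were higher in LACTB KO (median 0.25), and without clone A the median was -0.03. NR4A1, an orphan nuclear receptor, had 11.6, 10.1 and 10.4 CPM in WT and 39.5, 16.0 and 7.71 CPM in LACTB KO. NR4A2 and MYC had log2 fold changes of 0.65 and 0.34, and MYC was higher in clone B (92.4 CPM) than in clone A (68.2 CPM). JUN, among the 3 lower genes and named after its values were seen, was lowest in clone A. It had 94.9, 84.7 and 42.5 CPM in WT and 40.9, 71.5 and 50.85 CPM in LACTB KO. Of 27 tested genes of the integrated stress response 15 were higher and 12 lower. VLDLR, a lipoprotein receptor, had 7.52, 0.845 and 2.30 CPM in WT and 0.547, 0.479 and 0.579 CPM in LACTB KO (log2 fold change -2.72, SE 0.75, unadjusted p = 0.00765, edgeR). PSAT1, of serine synthesis, had 42.5, 16.1 and 15.2 CPM in WT and 12.2, 14.6 and 13.7 CPM in LACTB KO, and SDF2L1 had a log2 fold change of 0.44.

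Of the 25 genes on a list of those the study names in its myeloid comparisons 23 were tested, and 0 had an unadjusted p under 0.05 or non-overlapping groups. Among all tested genes 0.318% were higher and 2.90% lower at that p, and 2.21% lay above and 2.93% below WT. A count of 0 among 23 is near those shares and does not set apart these genes. Their log2 fold changes ranged from -0.45 for CXCL10, which was under 1 CPM in every library, to 0.77 for CCL22. CCL22 had 49.2, 117.0 and 144.0 CPM in WT and 314.3, 72.7 and 143.8 CPM in LACTB KO, with clone A highest and clone B below WT K and L. IL1B had 290.0, 377.1 and 183.9 CPM in WT and 340.9, 449.2 and 189.7 CPM in LACTB KO, and TNF had 52.8, 110.3 and 58.4 CPM in WT and 108.3, 110.2 and 63.6 CPM in LACTB KO. In both genes WT L and LACTB KO C were among the lowest libraries. For P2RY12 the log2 fold change was 0.19 (SE 0.22), for CX3CR1 -0.10 (SE 0.25) and for TGFBR1 0.03 (SE 0.16), in an edgeR fit in which differences of that size are within the spread between clones. Further genes of the list, CXCL8, CCL2, CCL3, CCL4, CCL5, IL10, CLEC7A, CD9, LGALS3, HLA-DRB1, CDKN2C and PCNT, had log2 fold changes between -0.25 and 0.26.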

How the data were processed

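Bulk RNA-seq of polyA RNA was analysed in the 6 libraries of differentiation 1. The authors trimmed paired reads with Cutadapt, mapped them with STAR to hg38 and deposited unscaled estimated counts for each gene; between 10.8% and 11.5% of the values in a library were not whole, and the counting tool, annotation and strand setting are not given in the sources used here. The counts were rounded and tested with edgeR 4.0.16 in R 4.3.3 (TMM, filterByExpr, quasi-likelihood test, Benjamini-Hochberg over all tested genes, threshold 0.05). The study's mixed model has no repeated clone within 1 differentiation. The interaction fit used 12 libraries with clone as a fixed effect. Differentiation 2 was scaled and fitted alone. The groups, the 31 gene lists and the tests were chosen with earlier results of these data known. The genes named are LACTB, the 10 per direction with the smallest p at a mean of 1 CPM or more, 3 genes a list, those of smallest p, 2 lists in full (genes the study names and neighbours of LACTB) and the highest markers of other cell types; further ones are said to be chosen after their values were seen. Coordinates come from GENCODE 44 on GRCh38, which held 62639 of 62703 identifiers. On simulated counts of 15406 genes with the spread of this comparison, the test recovered 57 of 100 genes changed by 2-fold and 65 of 100 changed by 4-fold, with 6 false calls. In the deposited counts 0 genes were called, and LACTB had an adjusted p of 0.983 in edgeR at a log2 fold change of -1.86. The simulated shares need therefore not hold for real changes. Alternatives included RLE, library size alone, other filters, DESeq2 1.42.0, limma 3.58.1 voom, all 12 libraries, counts not rounded, each library left out, and removal of the trend over expression, length and GC (mgcv 1.9.3). Genes linked to sex are not reported. Some named genes are not reported here.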

Additional observations from a re-analysis of the deposited data

Results flagged for a closer look

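ATF6-DT was higher in every LACTB KO library than in every WT library in differentiation 1, and lower in every LACTB KO library in differentiation 2. The difference between both fold changes was -1.82 on the log2 scale (differentiation 2 minus differentiation 1), with an unadjusted p of 0.00574 and an adjusted p of 1.00 for the interaction in edgeR, at levels between 0.546 and 1.77 CPM.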

How the results depend on the processing

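No paired analysis was possible because the WT clones (J, K, L) and the LACTB KO clones (A, B, C) share no replicate number. After subtraction of the genotype means, the correlations over tested genes were 0.122 for WT J with LACTB KO A, 0.14 for WT K with B and 0.146 for WT L with C, and between -0.101 and -0.0333 for the other pairs, but the labels name no such pairs and none was fitted. Without the expression filter 363 genes were called and 1643 had an unadjusted p under 0.05 (334 higher and 1309 lower in LACTB KO), LACTB was called at -1.84 with an adjusted p of 0.00272, and 377 genes had an unadjusted p under 0.05 for the interaction. DESeq2 called 3 genes. limma voom gave 215 genes at an unadjusted p under 0.05, 161 of them lower, and a fit of all 12 libraries gave 156 higher ones. The share of higher genes among those at an unadjusted p under 0.05 was 9.90%, and 20.3% without the filter, 25.1% with limma voom and 25.1% with all 12 libraries. With the trend over expression, length and GC removed, the median log2 fold change became -0.12 for microglial identity, 0.39 for erythroid and megakaryocyte genes and -0.18 for neural and epithelial genes, and under the stricter filter it was -4.09 for endothelial genes. The causes were not tested. Leaving out 1 library gave 0 to 1 called genes, 174 (without WT J) to 1366 (without WT K) genes at an unadjusted p under 0.05, 25 to 336 of them higher and 121 to 1030 lower, and a log2 fold change of LACTB between -3.09 and -1.48. The list medians then ranged from -0.37 to 0.073 for sterol synthesis and from -0.71 to -0.27 for neural and epithelial genes. Of 137 named genes 34 reversed only when a library was left out, and 2 (CDKN2C at -0.00352 under the stricter filter and -0.023 with limma voom, CSF1R at -0.00158 under the stricter filter) under another; the others kept their direction under every alternative run. With each library left out in turn, the log2 fold changes ranged as follows: MT-ATP6 -0.024 to 0.26, MT-CYB -0.29 to 0.017, IFI30 -0.0028 to 0.52, LSS -0.74 to 0.0072, SQLE -0.73 to 0.021, MSMO1 -0.89 to 0.055. Further such ranges were CEBPE -0.54 to 0.15, HPGDS -0.32 to 0.043, KIT -0.026 to 0.92, SIGLEC6 -0.051 to 1.92, GP1BA -0.039 to 0.42, HBB -0.74 to 0.028. Those that follow were ITGA2B -0.051 to 0.40, PLVAP -0.059 to 0.74, L1TD1 -0.98 to 0.10, IL1B -0.088 to 0.47, CCL3 -0.59 to 0.49, CCL4 -0.65 to 0.56. Similar ranges were CDKN2C -0.25 to 0.25, PCNT -0.17 to 0.0021, CSF1R -0.10 to 0.092, CX3CR1 -0.34 to 0.14, TGFBR1 -0.093 to 0.13, CLEC7A -0.094 to 0.26. Next to these were CD9 -0.059 to 0.22, LGALS3 -0.25 to 0.23, HLA-DRB1 -0.013 to 0.36, CXCL8 -0.49 to 0.74, IL10 -0.58 to 0.11, CCL2 -0.53 to 0.26. The remaining ranges were CCL5 -0.83 to 0.44, TLN2 -0.25 to 0.067, RPS27L -0.32 to 0.0395, RAB8B -0.013 to 0.079, USP3 -0.14 to 0.027, KRT18 -1.19 to 0.022.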
